A study of Homo sapiens with 16 samples.

Results

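FDXR, FDX1, SCO2, SESN1, SESN2, TIGAR, GLS2, CPT1C, TP53I3 and SPATA18 are 10 genes that p53 is known to regulate in mitochondria, redox control and carbon metabolism, described here in IMR32 cells after knockdown of TPX2. They were chosen by symbol with earlier results of these data known, and all are reported whatever their values. They are 10 of the 58787 gene identifiers in the deposited count table. SCO2 has 2 identifiers, so the 10 genes hold 11 rows. Of the 10 genes, 7 had enough counts to be tested, and SCO2, TIGAR and GLS2 did not. FDXR, SESN1 and SESN2 were higher under each of the 3 siRNAs, by 2.52-fold to 4.45-fold. They are among 129 of the 14193 genes tested that were called higher under each. TP53I3 and SPATA18 passed the test under 1 of the 3 siRNAs, and FDX1 and CPT1C passed it under none. SPATA18 had enough counts to be tested only through its knockdown groups.

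p53 is a transcription factor that is stabilised by DNA damage and other stresses, including mitotic faults. It is best known for genes of cell cycle arrest and apoptosis, and it also induces genes that act on metabolism. Those genes fall into a few roles: proteins that pass electrons to mitochondrial enzymes, sestrins that damp mTORC1 signalling, enzymes that steer glucose, glutamine and fatty acids, and proteins that act on quinones or on damaged mitochondria. TPX2 nucleates spindle microtubules and activates the mitotic kinase Aurora A.

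IMR32 is an established MYCN-amplified neuroblastoma line, labelled as neuroblast, and all libraries come from it. Cells received si45, si46 or si47, 3 siRNAs that target TPX2, or siNTC, the control siRNA, with 4 biological replicates each and 16 libraries in all. The column names of the table carry a time of 48 h. A TPX2 siRNA lowers the transcript without removing the gene, and all groups are of 1 line.

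TPX2 was at 315.4, 338.6, 296.7 and 358.9 CPM, its counts scaled to library size, in the siNTC libraries, 80.9, 79.4, 121.0 and 85.1 with si45, 90.9, 79.8, 93.8 and 62.2 with si46, and 68.7, 69.7, 76.3 and 71.3 with si47. Its mean was thus 28.0% of the control with si45, 24.95% with si46 and 21.8% with si47, and no knockdown library overlapped a control (two-sided exact permutation p = 0.0286 for each siRNA, the smallest that 4 against 4 libraries allow). Library totals ran from 5318159 to 7864343 counts. All 10 neuroblast markers were counted, with summed levels of 5360 to 5750 CPM in siNTC, 5630 to 6120 in si45, 5840 to 6500 in si46 and 6090 to 6570 in si47. In the mean of the 3 siRNAs DBH was lower (log2 −0.56), CHGA (0.67) and HAND2 (0.23) were higher (edgeR adjusted p = 1.27e-05, 0.0431 and 0.0193), and the other 7 did not pass. The 12 markers of other cells summed to 248 to 299, 282 to 352, 280 to 381 and 244 to 313 CPM in the same order, and 5 of them, 1 at 0, stayed at 3 counts or fewer in every library. In bulk RNA, a change in the share of cells that express a gene and a change in RNA per cell cannot be told apart.

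The start sites of the genes were searched for the p53 response element decamer, the site that each p53 dimer contacts, because the genes are listed as p53 targets. RefSeq (GRCh38.p14) gives 14 windows for 9 of the 10 genes, each from 250 bases before to 50 after a start, and SCO2 was not matched. The decamer reads the same on both strands. Windows of 3 genes held 2 adjacent decamers with at most 3 mismatches in 20 bases, and these are shown 5′ to 3′ on the gene's strand. The 4 core bases of each decamer are in capitals, and the first, C, and the last, G, had to match.
SESN1: ggaCAAGtctccaCAAGtca
FDXR: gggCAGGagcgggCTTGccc
GLS2: aggCTTGctggggCATGcgc

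The SESN1 stretch lies at chr6:109009018-109009037 on the minus strand, from 49 to 30 bases before the most downstream of its 3 starts and inside the gene's span, and has 3 mismatches. The FDXR stretch lies at chr17:74872996-74873015 on the minus strand, from 21 to 2 bases before the upstream of its 2 starts, with 3 mismatches. The GLS2 stretch lies at chr12:56488113-56488132 on the minus strand, from base 30 to base 49 after the start, with 2 mismatches. SESN1 and FDXR also held an exact decamer, the first 10 bases of the SESN1 stretch and the last 10 of the FDXR stretch. Over all 35116 RefSeq windows, 6.63% held an exact decamer and 1.12% held the adjacent pair, against 2 of 14 and 3 of 14 windows of the genes described here. A match describes letters in a window and says nothing of binding, and elements farther from a start were not searched.

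The first role is electron transfer in mitochondria. FDXR, ferredoxin reductase, takes electrons from NADPH and hands them to the ferredoxins. It is encoded on chromosome 17 at 74862497 to 74873031, minus strand (ENSG00000161513, GENCODE v29 on GRCh38). FDXR was at 13.3, 10.3, 12.1 and 13.01 CPM in the siNTC libraries, 31.05, 33.9, 29.5 and 28.9 with si45, 36.2, 28.2, 28.6 and 35.8 with si46, and 43.5, 49.2, 32.8 and 46.9 with si47. All 12 knockdown libraries lay above all 4 controls, a pattern found in 212 of the 14193 genes tested (1.49%). The fold over control was 2.53 with si45, 2.65 with si46 and 3.53 with si47, which is 1.34 in log2 units for si45 (SE 0.155), 1.40 for si46 (SE 0.154) and 1.82 for si47 (SE 0.153; edgeR quasi-likelihood test, Benjamini-Hochberg adjusted p = 4.95e-07, 1.72e-07 and 2.25e-10).

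FDX1, ferredoxin 1, carries the electrons from FDXR to mitochondrial cytochrome P450 enzymes, and lies on chromosome 11 at 110429883 to 110464881, plus strand (ENSG00000137714). It was at 7.86, 7.82, 6.81 and 5.90 CPM in siNTC, 9.16, 5.198, 3.99 and 4.16 with si45, 5.19, 5.82, 5.72 and 7.27 with si46, and 9.12, 7.80, 4.37 and 7.11 with si47. The groups overlapped, and replicates of si45 and si47 spread by more than 2-fold. The mean of the 3 siRNAs differed from siNTC by −0.19 on the log2 scale (95% interval −0.64 to 0.26, edgeR adjusted p = 0.704). FDX1 was counted 22 to 59 times per library, so smaller changes were not detectable at this depth.

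SCO2 helps load copper into cytochrome c oxidase, the last complex of the respiratory chain. Its 2 identifiers, ENSG00000130489 at 50523568 to 50525606 and ENSG00000284194 at 50523568 to 50526439 on the minus strand of chromosome 22, were both at 0 counts in all 16 libraries. A count of 0 allows up to 3 counts, or 0.567 CPM in the library of lowest depth, by counting error alone. The 2 models share their strand and all of their last 500 exonic bases, where 3′ reads fall. Of 678 protein-coding genes whose last 500 exonic bases are wholly shared with another gene on the same strand, 537 (79.2%) had 3 counts or fewer in every library, against 5014 of 18392 (27.3%) with no shared base there. Whether SCO2 is silent or its reads were assigned to neither identifier was not tested. Its relative SCO1, which also takes part in copper loading, was measured well and did not pass the test (log2 0.04, SE 0.0871 for the mean of the 3 siRNAs). NCAPH2, a condensin II subunit on the opposite strand within 2 kb, was lower (log2 −0.42, SE 0.112, edgeR adjusted p = 0.0198). TYMP, which overlaps the longer SCO2 model on its strand, gave −0.10 and did not pass.

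The second role is nutrient sensing by the sestrins, which hold back mTORC1 through the GATOR complexes and act on the redox state of peroxiredoxins. SESN1 (ENSG00000080546, chromosome 6, 108986437 to 109094819, minus strand) was at 4.97, 9.70, 7.19 and 6.07 CPM in siNTC. With si45 it was at 22.4, 32.7, 17.5 and 17.2 CPM, with si46 at 18.1, 27.1, 16.2 and 21.98, and with si47 at 38.0, 32.1, 29.6 and 25.1. The lowest knockdown library, 16.2 CPM, was above the highest control, 9.70 CPM. SESN1 was 3.22-fold higher with si45, 2.96-fold with si46 and 4.45-fold with si47, which was the largest fold over control among the 7 genes tested (log2 1.69, SE 0.227, 1.57, SE 0.228, and 2.15, SE 0.225; edgeR adjusted p = 1.73e-05, 4.32e-05 and 5.64e-08). The RefSeq 3′ end of SESN1 lies 2128 bases beyond the GENCODE v29 model, so reads at that end would be missed if the counting used such a model, which was not tested.

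SESN2 (ENSG00000130766, chromosome 1, 28259527 to 28282491, plus strand) senses leucine and is known to answer both p53 and ATF4, the transcription factor of the integrated stress response. It was at 26.3, 30.8, 31.96 and 24.1 CPM in siNTC, 74.2, 91.0, 50.8 and 69.2 with si45, 73.05, 84.4, 65.0 and 77.5 with si46, and 121.7, 157.8, 81.0 and 100.1 with si47. All 12 knockdown libraries again lay above all 4 controls. Replicate 3 was the lowest library in each of the 3 knockdown groups. SESN2 was 2.52-fold higher with si45, 2.65-fold with si46 and 4.07-fold with si47 (log2 1.34, SE 0.194, 1.41, SE 0.194, and 2.02, SE 0.193; edgeR adjusted p = 6.98e-04, 2.67e-04 and 1.63e-06).

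SESN3, the third sestrin, is induced by FOXO factors. Its group means were 8.26 ± 1.11 CPM in siNTC, 7.64 ± 2.79 with si45, 7.87 ± 1.91 with si46 and 8.60 ± 2.05 with si47 (SD, n = 4 each), and it did not pass the test (log2 −0.04, SE 0.218). Within each library, the log2 ratio of SESN1 to SESN3, on CPM + 1, averaged 1.51 ± 0.445 in the 12 knockdown and −0.241 ± 0.273 in the 4 siNTC libraries (SD), a difference of 1.75. The ratio of SESN2 to SESN3 averaged 3.27 ± 0.394 against 1.66 ± 0.19, a difference of 1.61. In both ratios all 12 knockdown libraries were above all 4 controls (two-sided exact permutation p = 0.0011, the smallest that 12 against 4 allow, and 0.00275 adjusted over the 5 ratios computed). SESN1 and SESN2 therefore moved apart from SESN3 by more than the spread between libraries.

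**Figure D1:**
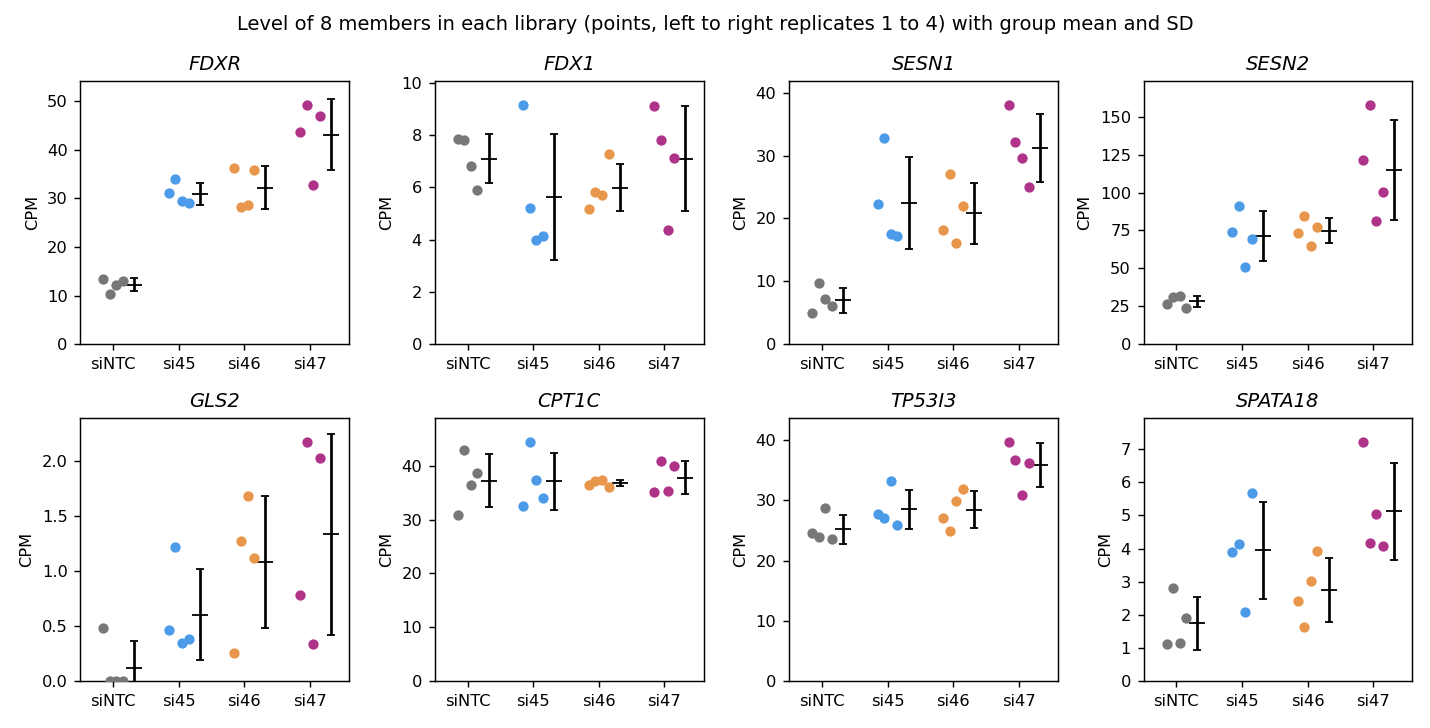
Level in CPM (linear axis from 0) of 8 of the 10 genes in each library, by siRNA. Points are replicates 1 to 4 from left to right, and the bar beside them is the group mean with its SD. FDXR, SESN1 and SESN2 have all knockdown libraries above all controls, with si47 highest on average, CPT1C is level across the groups, and GLS2 stays at or below 2.18 CPM.

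The third role is the handling of carbon fuels. TIGAR lowers fructose-2,6-bisphosphate and so turns glucose toward the pentose phosphate pathway. It lies on chromosome 12 at 4307763 to 4354593, plus strand (ENSG00000078237). TIGAR had 3 counts in siNTC replicate 3, 1 count in si45 replicate 1, 1 count in si46 replicate 4 and 0 in the other 13 libraries. Both groups are at or under the floor of 3 counts per library, so no fold is given. The RefSeq 3′ end of TIGAR lies 5435 bases beyond its GENCODE v29 model, and a gene annotated across it on the same strand, AC008012.1, shares 42.6% of its exonic bases and was also at 0. Their part in the low counts was not tested.

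GLS2, the liver-type mitochondrial glutaminase, turns glutamine into glutamate and feeds glutathione synthesis. It lies on chromosome 12 at 56470944 to 56488414, minus strand (ENSG00000135423). GLS2 had 3, 0, 0 and 0 counts in siNTC, 3, 8, 2 and 2 with si45, 2, 7, 10 and 6 with si46, and 5, 12, 2 and 12 with si47. The 12 knockdown libraries together held 71 counts and the 4 siNTC libraries 3, a ratio of 7.73 per unit of depth (95% interval 2.54 to 38.4, counting error only). All 3 control counts came from siNTC replicate 1, so the ratio rests on that library, and without it the control stands at 0. The libraries of each siRNA overlapped the highest control, and the exact permutation test on log2(CPM + 1) gave two-sided p = 0.114, 0.0571 and 0.0571 for si45, si46 and si47, so no single siRNA passed. Without the filter on low counts, edgeR called GLS2 higher with si47 (adjusted p = 0.0362) and not with si46 (0.138), si45 (0.556) or the mean of the 3 (0.0661). The unfiltered fit was not rerun with a library left out. Fits that left out 1 library kept the filter, which GLS2 then passed in some, only through its knockdown counts. Their edgeR adjusted p-values are thus of other fits and do not test that call. For si47 they were 0.0955, 0.0866 and 0.0962 without siNTC replicate 2, 3 or 4, and 0.0124 without siNTC replicate 1. Where GLS2 was tested without a knockdown library, they ran from 0.0148 to 0.0392 for si47. Without siNTC replicate 1, si46 (0.0492) and the mean (0.024) passed too. The fitted log2 value of the mean was 2.74 without the filter. It was 5.54 without siNTC replicate 1, which is no bound since the control is then at 0. SPRYD4, which overlaps GLS2 on the opposite strand, gave 0.03 (adjusted p = 0.943), and AC097104.1, annotated across GLS2 on its strand, was at 0.

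CPT1C is the brain form of carnitine palmitoyltransferase 1, whose relatives CPT1A and CPT1B pass long-chain fatty acids into mitochondria. It lies on chromosome 19 at 49690898 to 49713731, plus strand (ENSG00000169169). Group means were 37.25 ± 4.96 CPM in siNTC, 37.1 ± 5.35 with si45, 36.8 ± 0.567 with si46 and 37.8 ± 3.04 with si47 (SD, n = 4 each). The mean of the 3 siRNAs differed from siNTC by 0.00 on the log2 scale, and the 95% interval of −0.21 to 0.20 leaves room for small changes only. CPT1A gave −0.09 (SE 0.0994) and the ratio of CPT1C to CPT1A differed by 0.103 (exact permutation p = 0.541). CPT1B was under the count filter and was not tested, with 4 to 11 counts in the siNTC libraries and 0 to 4 in the knockdown libraries. Its level was 0.757 to 1.91 CPM in siNTC and 0 to 0.677 CPM in the 12 knockdown libraries, all below all 4 controls, as were 1.03% of the genes tested. That share is of genes past the filter and is no measure for CPT1B, which had 4 counts in libraries of both kinds.

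The last role covers a quinone reductase and a mitochondrial quality gene. TP53I3 (ENSG00000115129, chromosome 2, 24077433 to 24085861, minus strand), also called PIG3, is an NADPH-dependent quinone reductase linked to reactive oxygen species in p53-driven apoptosis. It was at 24.5, 23.9, 28.75 and 23.6 CPM in siNTC, 27.8, 27.1, 33.3 and 25.9 with si45, 27.1, 24.9, 30.0 and 31.85 with si46, and 39.8, 36.65, 30.9 and 36.2 with si47. The 4 si47 libraries were above all controls, as were 1 of 4 with si45 and 2 of 4 with si46. TP53I3 was higher with si47 (log2 0.51, SE 0.137, edgeR adjusted p = 0.0125), while si45 and si46 each gave 0.18 (SE 0.138, adjusted p = 0.688 and 0.617). Leaving out si47 replicate 1 ended the si47 call (0.46, adjusted p = 0.0562). CRYZ, another zeta-crystallin-type quinone reductase, gave −0.15 (SE 0.183), and the ratio of TP53I3 to CRYZ differed by 0.412 (exact permutation p = 0.134), or by 0.632 without siNTC replicate 3 (p = 0.0308). FAM228B, which overlaps TP53I3 on the opposite strand, gave 0.12 (adjusted p = 0.891).

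SPATA18 (ENSG00000163071, chromosome 4, 52051331 to 52097292, plus strand), also called MIEAP, is tied to the clearance of oxidised mitochondrial proteins. It was at 1.122, 2.82, 1.135 and 1.91 CPM in siNTC, 3.88, 4.13, 2.08 and 5.68 with si45, 2.41, 1.64, 3.03 and 3.91 with si46, and 7.23, 4.17, 5.04 and 4.06 with si47. These are 6 to 46 counts per library, and 9 of the 12 knockdown libraries were above all controls. SPATA18 was higher with si47 (log2 1.54, SE 0.411, edgeR adjusted p = 0.0128), and the values of 1.15 with si45 (SE 0.417) and 0.63 with si46 (SE 0.428) did not pass (adjusted p = 0.22 and 0.539), nor did the mean of the 3 (1.11, SE 0.358, adjusted p = 0.0534). The si47 call ended without siNTC replicate 1 (adjusted p = 0.0525) or si47 replicate 1 (0.0723). SPATA18 passed the count filter only through the knockdown groups, so its si47 call rests on a low control. BNIP3, a mitophagy receptor, gave 0.01 (SE 0.11).

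Of the 7 tested genes, SPATA18 passed the count filter only through the knockdown groups, with 2 of its 4 siNTC libraries under 10 counts. It is left out of the counts of genes called higher in the next sentence, and later counts of 7 include it. Of the other 6, all with at least 10 counts in every library, 3 were higher with si45, against 1.01% of all 14193 genes tested, 3 with si46 (2.14% of all genes), 4 with si47 (4.91% of all genes) and 3 in the mean of the 3 siRNAs (3.61% of all genes). None of the 7 was lower, which does not set them apart, since 0.324%, 1.25%, 4.83% and 3.53% of all genes were in the same order. These comparisons all share the 4 siNTC libraries, and the genes were chosen with earlier results of these data known. The median log2 fold change of all genes tested was within 0.0043 of 0 in these contrasts. FDXR, SESN1 and SESN2 were among the 129 of 14193 tested genes called higher under each of the 3 siRNAs. Of the 7 relatives, FDX2 and CPT1B were under the filter, 5 were tested and none of the 5 passed in any comparison with siNTC (edgeR, also 0 at an unadjusted p under 0.05).

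**Figure D2:**
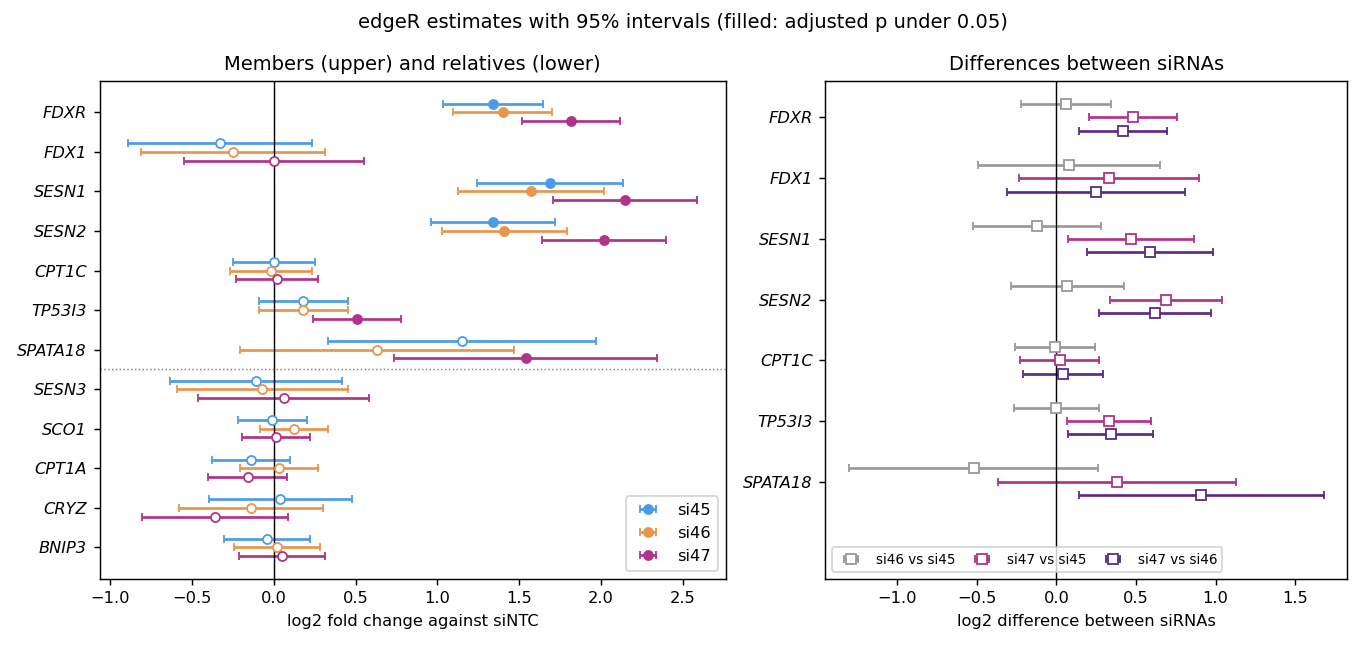
Left, edgeR log2 fold change of each tested gene and of 5 relatives with each siRNA against siNTC, and right, log2 differences between siRNAs for the tested genes. Points are estimates with 95% intervals, filled where the adjusted p is under 0.05. FDXR, SESN1 and SESN2 are filled under all 3 siRNAs, TP53I3 and SPATA18 under si47, and none of the relatives or differences between siRNAs is filled.

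The siRNAs were also compared with each other. Group means of FDXR, SESN1 and SESN2 were highest with si47 and lowest with siNTC, and si45 and si46 were neighbours that did not differ beyond their spread. For si46 against si45, FDXR gave 0.06 (95% interval −0.22 to 0.34), SESN1 −0.12 (−0.52 to 0.28) and SESN2 0.07 (−0.29 to 0.43) on the log2 scale. For si47 against si45, FDXR gave 0.48 (0.20 to 0.76, edgeR adjusted p = 0.144), SESN1 0.47 (0.07 to 0.86, adjusted p = 0.391) and SESN2 0.69 (0.33 to 1.04, adjusted p = 0.123). For si47 against si46, FDXR gave 0.42 (0.14 to 0.69, adjusted p = 0.454), SESN1 0.59 (0.19 to 0.98, adjusted p = 0.456) and SESN2 0.62 (0.27 to 0.97, adjusted p = 0.345).

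None of the 7 genes was called between siRNAs by edgeR, where 0.0282% of all genes were called for si46 against si45, 0.169% for si47 against si45 and 0.0493% for si47 against si46. At an unadjusted p under 0.05 the counts were 0, 4 and 5 of 7, beside 4.1%, 10.4% and 7.29% of all genes. The 7 include SPATA18, which passed the count filter only through the knockdown groups. DESeq2 called 0, 1 (SESN2) and 0, beside 0.0705%, 0.965% and 0.197% of all genes. Deviations of same-numbered libraries were correlated between si45 and si47, which does not establish that these groups are paired. With the replicate number as a block, which the fit reported did not use, FDXR and SESN2 passed for si47 against si45, as did 2.8% of all genes. Without si47 replicate 3, the lowest si47 library for FDXR and SESN2, FDXR and SESN2 passed for si47 against si45, as did 1.02% of all genes, and SESN2 for si47 against si46, as did 0.159%. GLS2 entered the test there, and 8 genes were tested. TP53I3 and SPATA18, called with si47 alone, were not shown to differ between siRNAs: TP53I3 gave 0.33 for si47 against si45 and 0.34 against si46 (adjusted p = 0.35 and 0.559), and SPATA18 0.38 and 0.91 (adjusted p = 0.785 and 0.596).

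**Figure D3:**
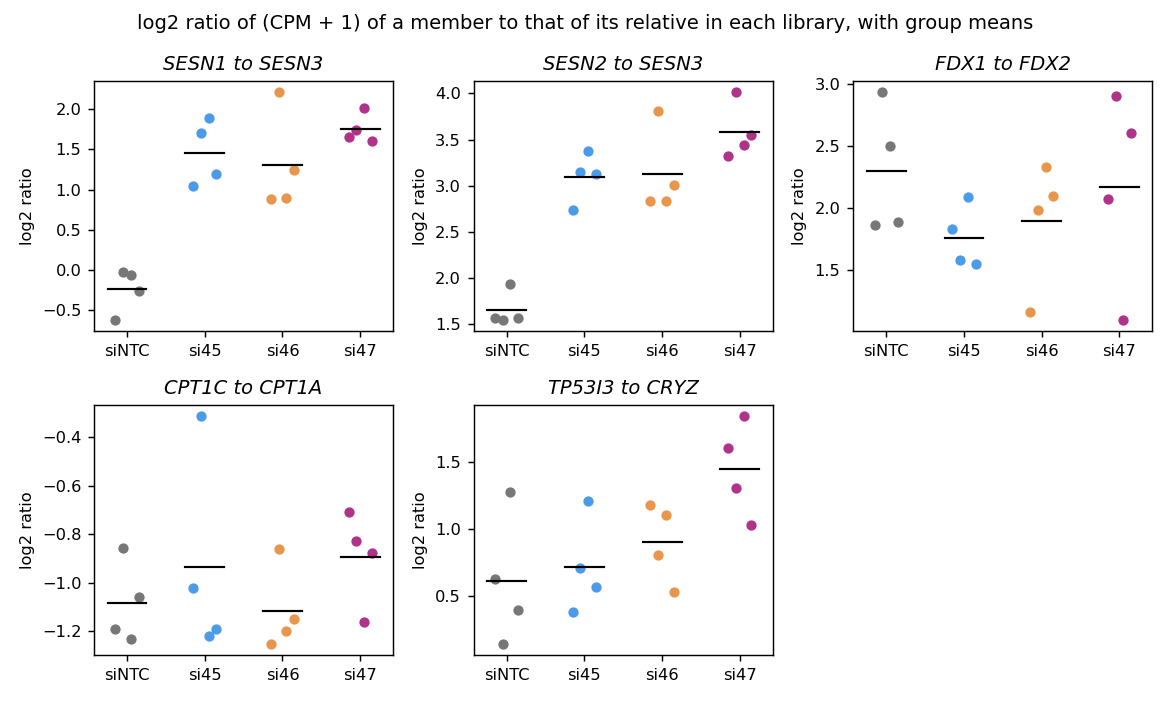
log2 ratio of (CPM + 1) of a gene to that of its relative within each library, by siRNA, with replicates 1 to 4 from left to right and a bar at each group mean. For SESN1 and SESN2 over SESN3 every knockdown library lies above every siNTC library. The other 3 ratios overlap between knockdown and control.

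The pathways around these genes were read from fixed lists in the contrast of the averaged siRNAs with siNTC, with the count at an unadjusted p under 0.05 in brackets. Of all genes in that contrast, 3.61% were called higher, 3.53% lower and 20.4% had an unadjusted p under 0.05. Around FDXR and FDX1, 0 of 14 tested genes of iron-sulfur cluster synthesis were called (1 unadjusted, median log2 0.0565), and 0 of 4 of mitochondrial cytochrome P450 and steroid synthesis (0 unadjusted, median 0.518). Around SCO2, 0 of 19 cytochrome c oxidase assembly genes were called (1 unadjusted, median 0.0239). Around the sestrins, 3 of 20 tested genes of GATOR, AMPK and TSC nutrient sensing were higher and 0 lower (5 unadjusted, median 0.0469). Those 3 were PRKAB2 (0.58, adjusted p = 4.94e-04) and PRKAB1 (0.69, adjusted p = 0.0166), the beta subunits of AMPK, and DDIT4 (1.03, adjusted p = 0.0033), a further brake on mTORC1, all by edgeR.

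Around the fuel genes, 0 of 11 tested genes of the pentose phosphate pathway and PFKFB family were called (1 unadjusted, median −0.0219), and 0 of 11 of glutamine and glutamate metabolism (4 unadjusted, median −0.00506). For CPT1C, 2 of 14 tested genes of the carnitine shuttle and fatty acid oxidation were higher and 0 lower (3 unadjusted, median −0.00567). Those 2 were ETFA (0.34, edgeR adjusted p = 0.018), an electron transfer flavoprotein subunit, and HADHB (0.38, adjusted p = 0.0479), a subunit of the mitochondrial trifunctional protein. Around TP53I3 and SPATA18, 0 of 18 tested genes of glutathione, thioredoxin and NRF2 were called (5 unadjusted, median 0.0784), and 0 of 10 of mitophagy (2 unadjusted, median 0.0217).

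Other p53 targets, also chosen with earlier results of these data known, were set beside them. Of 10 further tested targets with metabolic roles, 4 were higher and 0 lower (5 unadjusted, median 0.375): TP53INP1, which acts in autophagy (1.62), RRM2B, the p53-inducible ribonucleotide reductase subunit (1.22), and PRKAB2 and PRKAB1, which the AMPK list also holds. Of 18 targets outside metabolism, 17 were higher and 0 lower (18 unadjusted, median 1.42), among them PHLDA3, an inhibitor of AKT (1.79), and EDA2R, a death receptor (1.86). Their summed level was 933 to 1100 CPM in siNTC, 1860 to 2150 with si45, 1860 to 2360 with si46 and 2380 to 2930 with si47. The log2 values of FDXR, SESN1 and SESN2 in this contrast were 1.52, 1.80 and 1.59, and those of CPT1C and FDX1 0.00 and −0.19.

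SESN2 also stands in the list of ATF4 targets, of which 5 of 11 were higher and 0 lower (8 unadjusted, median 0.879): SESN2 itself, DDIT3 (1.17), DDIT4 (1.03), CHAC1 (1.08) and ATF3 (1.73). With si45 the one gene of that list called higher was SESN2 (1.01% of all genes), with si46 DDIT4 was called beside it (2.14% of all genes), and with si47 6 of 11 were called (4.91% of all genes). The other 10 summed to 315 to 369 CPM in siNTC, 334 to 415 with si45, 339 to 371 with si46 and 350 to 543 with si47. Their part in the level of SESN2 was not tested.

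**Figure D4:**
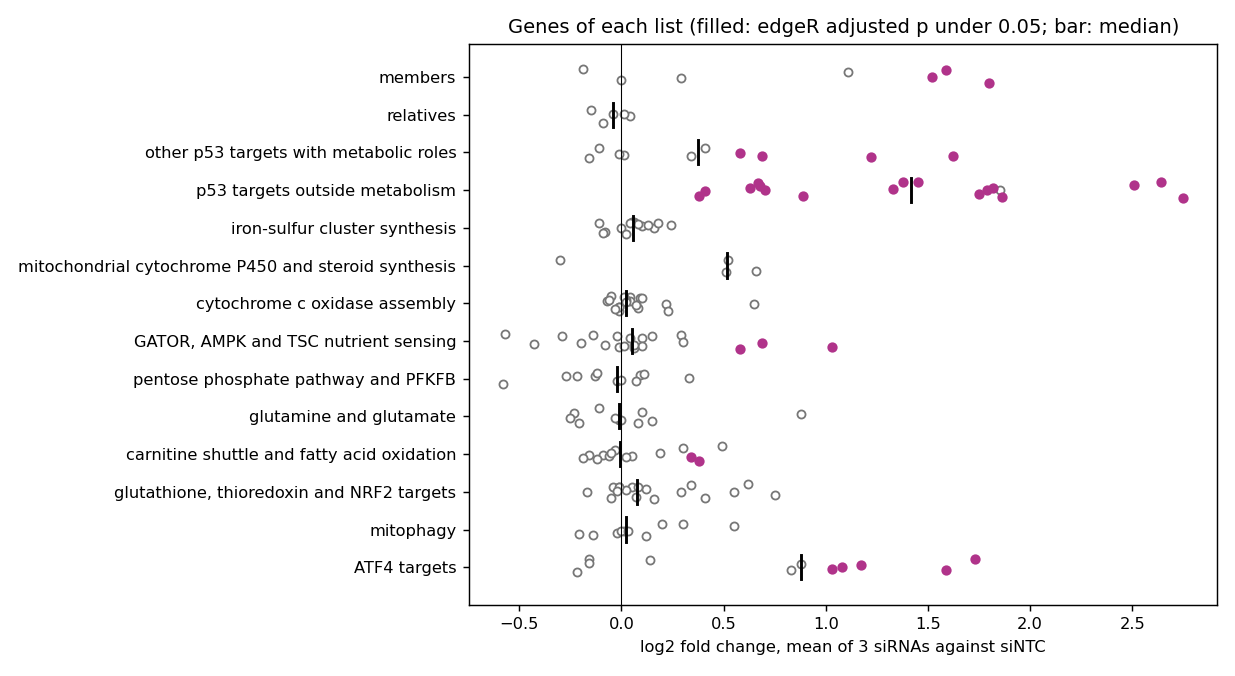
edgeR log2 fold change, averaged over the siRNAs, for every tested gene of each list. Each point is a gene, filled where the adjusted p is under 0.05, and the bar is the list's median, which is not drawn for the genes described here. Those genes span −0.19 to 1.80, and the pathway lists other than those of p53 and ATF4 targets have medians near 0 apart from the 4 genes of the cytochrome P450 list.

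The 2 genes most like each tested gene were found by Pearson r of log2 CPM over the 16 libraries, which share depth and siRNA group, and are given as a description. For FDXR they were BBC3 (r = 0.967), a BH3-only apoptosis gene also called PUMA, and CDKN1A (0.964), the cyclin-dependent kinase inhibitor p21. SESN1 was most like GADD45B (0.968) and ZMAT3 (0.963), and SESN2 most like ZMAT3 (0.984) and MDM2 (0.978), the ubiquitin ligase of p53. These 5 genes were all called higher by edgeR in the mean of the 3 siRNAs (log2 2.64, 2.58, 3.34, 1.45 and 1.25 in the order named). GADD45B had 2 to 8 counts in the siNTC libraries and passed the count filter only through the knockdown groups, so its value rests on a low control. The nearest genes of the other 4 did not pass that test: TARBP1 (0.841) and SNORD15B (0.803) for FDX1, WARS2-AS1 (0.777) and RBFA (0.771) for CPT1C, FUNDC1 (0.872) and ZNF791 (0.842) for TP53I3, and HBP1 (0.861) and SOX5 (0.847) for SPATA18.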

How the data were processed

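Per the labels' protocols, total RNA was extracted by column with DNase treatment, made into 3′ QuantSeq libraries with 15 PCR cycles and sequenced single-end. The authors deposited 1 table of raw counts per Ensembl gene, not normalized. The submitters' processing notes name FastQC 0.11.7, STAR 2.7.2b, edgeR 3.36.0, limma 3.50.3 and GRCh38. The annotation, the counter, the strand setting and any collapse of duplicates are not given in the sources used here. PCR reads are not independent molecules, so intervals and floors from counts cover counting error only, and reads of overlapping genes on opposite strands may not have been told apart. With 3′ reads, a level depends on where the annotated 3′ end lies.

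Each column names its siRNA and replicate number, which gave its sample. Of 58787 identifiers, 58434 had a symbol in the current gene name table and 58515 were in GENCODE v29. Replicates were compared by chi-square per degree of freedom over genes, and 24 pairs within groups gave 4.357 to 9.8, more than sampling noise gives.

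Counts were tested with edgeR 4.0.16 (R 4.3.3): filterByExpr (minimum count 10, minimum total 15), TMM, and a robust quasi-likelihood fit of 4 group means over 16 libraries with no covariate. p-values were Benjamini-Hochberg adjusted over 14193 genes per contrast, with a threshold of 0.05. The SE is the log2 fold change over the square root of F. CPM uses TMM library sizes. Exact permutation tests (scipy 1.17.1) used log2(CPM + 1). Scripts were tested on simulated data. Alternatives were DESeq2 1.42.0, limma-voom (limma 3.58.1), scaling by upper quartile or RLE, other filters, only the groups compared, a fit without robust, the replicate number as a block, and each library left out.

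The numbers of replicates are shared across groups, and no label says that a number marks a batch. Between si45 and si47 the deviations of same-numbered libraries had r of 0.12 to 0.242, over 0.1 in each of the 4 pairs, and in 1 to 3 of 4 pairs elsewhere. Libraries of different number were not compared, so r does not establish a pairing. The limit of 0.1 was a chosen one. Over all pairs of groups r was positive, from 0.0188 to 0.247, and the fit reported used no block.

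The genes and lists were chosen with earlier results of these data known. Named were the 10 genes, their relatives, genes within 2 kb, up to 4 genes per list past the threshold in the mean contrast, and the 2 genes most like each tested gene. Some genes that the rule or a list would hold, with the values that need them, are not reported here. Of the neighbours, those with values that bear on a gene described are given.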

Additional observations from a re-analysis of the deposited data

Results flagged for a closer look

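In 52 groups of 4 libraries, drawn from the genes described, their relatives and TPX2, the highest or lowest library was set against the other 3. The 52 do not cover every group of these genes. GLS2 and TIGAR, each at 0 in 3 siNTC libraries, are not among those flagged. TPX2 in si45 replicate 3 stood apart at 121.0 CPM, with the other 3 si45 libraries at 79.35 to 85.12. SCO1 in the same library stood apart at 75.25 CPM, with the others at 59.31 to 61.48. Chance alone gives 2.6 such groups of 52. In that library SESN2 was the lowest of its group at 50.8 CPM, and the counts with and without it are given with the alternatives.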

How the results depend on the processing

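FDXR, SESN1 and SESN2 were called higher with each siRNA under all 26 alternatives, with log2 values of 1.27 to 1.93, 1.42 to 2.37 and 1.2 to 2.22. Of 6 to 9 genes tested, 3 to 3 were called with si45, 3 to 4 with si46 and 4 to 6 with si47, while the share of all genes called ranged from 0.672% to 4.07%, 1.74% to 7.56% and 5.29% to 15.5%. The counts in this paragraph hold SPATA18 and GLS2 where they were tested, and both passed a count filter only through the knockdown groups. GLS2, untested in the fit reported and in part of the alternatives, was among the genes called in 1 of 26 alternatives with si46, 11 of 26 with si47 and 4 of 25 in the mean contrast. The counts of 4 with si46 and 6 with si47 include it. In the mean contrast they numbered 3 to 5 on leaving out single libraries, with 5 without si45 replicate 3 (GLS2 and SPATA18 added, 9.58% of all genes called), and SPATA18 passed with the replicate block (adjusted p = 0.0311), with DESeq2 (0.0271) and without siNTC replicate 2, si45 replicate 3 or si46 replicate 2. For si47 against si45, where none was called, the alternatives gave 1 with no filter on low counts, 1 with DESeq2, 2 with the replicate block, 1 without replicate 3 of every group, an alternative chosen after seeing the data, and 0 to 2 on leaving out single libraries. For si47 against si46 they gave 1 with no filter, 1 with the replicate block, 1 without replicate 3, and 0 to 1 on leaving out single libraries. Over all genes, the block raised the calls from 190 to 577 with si45, from 482 to 1073 with si46, from 1382 to 2198 with si47 and from 1014 to 1817 in the mean contrast, and it changed no other call of the genes described. The cause was not tested.

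On leaving out single libraries TPX2 gave −1.98 to −1.78 with si45, −2.08 to −1.88 with si46 and −2.22 to −2.13 with si47, where 3 against 4 libraries allow no p below 0.0571. The TP53I3 to CRYZ ratio ranged from 0.257 to 0.632 in the same way, and passed without siNTC replicate 3 alone (exact permutation p = 0.0308 against 0.134). FDX1 and CPT1C, near 0 and not called, changed sign in places. FDX1 with si47 gave 0.01 with upper-quartile factors and with at least 10 counts in every library, 0.00 with only the groups compared, 0.15 without replicate 3, and −0.14 to 0.17 without single libraries. CPT1C gave 0.00 or 0.01 with si45 (no filter, at least 10 counts, only the groups compared) and in the mean contrast (upper-quartile factors, no filter, at least 10 counts, replicate block, limma-voom). Without single libraries CPT1C gave −0.10 to 0.08 with si45, −0.10 to 0.06 with si46, −0.06 to 0.10 with si47 and −0.08 to 0.08 in the mean contrast. At least 10 counts in every library left SPATA18 untested.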

Other observations

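Some redox and glutamine genes passed in 1 siRNA and not in the mean contrast, and they are named after their values were seen. With si46, HMOX1, heme oxygenase 1, was higher by 1.53 on the log2 scale (edgeR adjusted p = 0.0203) and SLC7A11, the cystine transporter, by 0.76 (adjusted p = 0.0394). Of all genes, 2.14% were called higher with si46, and with si47 4.91% were called higher and 4.83% lower. With si47, GPX1, glutathione peroxidase 1, was higher by 0.71 (adjusted p = 6.75e-04), TXNRD1, the cytosolic thioredoxin reductase, was lower (−0.37, adjusted p = 0.00974), and the glutamine-list genes GOT2 (−0.32, adjusted p = 0.0275) and PPAT (−0.34, adjusted p = 0.035) were lower. No gene of these 2 lists was called between siRNAs by edgeR, where 0.0282% to 0.169% of all genes were. At an unadjusted p under 0.05, up to 5 of 18 for glutathione, thioredoxin and NRF2 passed (si47 against si46, 7.29% of all genes). Up to 1 of 11 for glutamine and glutamate passed (si47 against si45, 10.4% of all genes). The genes named here were thus not shown to differ from one siRNA to another.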
